A study of Mus musculus with 3 samples.

Results

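Among 28336 liver nuclei that passed the quality limits, 56 were mesothelial-like, of which 14 came from the normal mouse (ND), 31 from STZ-HFHC mouse 1 and 11 from STZ-HFHC mouse 2. Members were chosen by measured transcripts. A nucleus had to hold at least 2 of the mesothelial markers Msln, Upk3b, Wt1, Muc16, Gpm6a and Lrrn4, including 1 of the first 4, and these 6 genes had to make up at least 0.1% of its unique molecular identifiers (UMIs, the counted RNA molecules). It could hold at most 1 of the exclusion genes Stab2 and Ptprb (endothelium), Lrat and Ecm1 (stellate cells), Csf1r and Clec4f (macrophages) and Skap1 (T cells). The name comes from these markers alone, since position in the tissue was not measured.

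The study profiled single nuclei from frozen liver of 3 male C57BL/6J mice. ND was 1 normal mouse. The STZ-HFHC group was 2 mice injected with 0.2 mg of streptozocin, a toxin of pancreatic beta cells, at 3 days of age and fed a high-fat, high-cholesterol diet from an age of 4 weeks, a model of metabolic dysfunction-associated steatohepatitis with fibrosis. Each mouse gave 1 library. The kept nuclei of ND, STZ-HFHC 1 and STZ-HFHC 2 held 42715797, 44350401 and 55632923 UMIs, with medians of 4068, 3015 and 4027 per nucleus, and levels given below as 3 numbers follow this order. The code in the ND library's label begins differently from those of both STZ-HFHC libraries, and what this marks is not given in the sources used here, so that whatever it marks and condition cannot be told apart. A single ND mouse allows no test between ND and STZ-HFHC. ND mice were kept on a normal diet in the study's methods. The age at which these 3 livers were collected is not given in the sources used here.

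Mesothelium is the single layer of flat epithelial cells that covers the liver capsule and the other surfaces of the peritoneal cavity. It rests on a basement membrane, makes a lubricating coat of mucins and glycoproteins, and keeps features of the coelomic lining of the embryo, among them the transcription factor WT1. It is known for carrying both epithelial genes, such as keratins, and genes shared with fibroblasts, and in injured liver mesothelial cells can take on mesenchymal features.

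Upk3b, a uroplakin of urothelial and mesothelial surfaces, is one of the markers that name these nuclei. Its 250 bases before the RefSeq start (GRCm38.p6, chr5:136038246-136038495, plus strand) are printed to show the regulatory window of a gene that the rule itself used. Capitals mark the letters CATTCC, which is GGAATG, the motif bound by TEAD factors, on the other strand. The search covered both strands, and 12.6% of 32851 mouse promoter windows of this length held the motif.
Upk3b: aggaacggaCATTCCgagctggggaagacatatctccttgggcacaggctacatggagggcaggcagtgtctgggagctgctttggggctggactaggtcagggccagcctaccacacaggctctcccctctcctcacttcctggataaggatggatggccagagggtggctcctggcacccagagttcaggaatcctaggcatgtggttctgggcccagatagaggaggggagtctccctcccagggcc

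The libraries differed in how much they gave to the members. STZ-HFHC 1 held 72.2% of all member UMIs (102079), against 15.0% in ND (21155) and 12.9% in STZ-HFHC 2 (18223). Median depth was 1316.5 UMIs per member nucleus in ND (range 717 to 4192), 2364 in STZ-HFHC 1 (1077 to 7339) and 1650 in STZ-HFHC 2 (937 to 2742), and medians of 971, 1533 and 1132 genes were detected. These nuclei were shallower than hepatocyte-like nuclei, whose medians were 3232, 4233 and 4709 UMIs. Medians were 1999, 2317 and 2291.5 UMIs in stellate-like and 1930.5, 2277 and 1851 in cholangiocyte-like nuclei. The members lay below both of these in ND and STZ-HFHC 2 and above both in STZ-HFHC 1. None of the 56 was among the highest 8% of doublet scores. Mitochondrial transcripts made up 0.477%, 0.472% and 0.379% of member UMIs, against 0.185%, 0.148% and 0.0776% in hepatocyte-like nuclei. Between 29 and 32 cell barcodes were shared by each pair of libraries, none of them by members.

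Members were 0.165% of kept nuclei in ND (exact 95% binomial interval 0.0901 to 0.276), 0.347% in STZ-HFHC 1 (0.236 to 0.493) and 0.101% in STZ-HFHC 2 (0.0503 to 0.180). The STZ-HFHC mean was 0.224% ± 0.174 (SD, n = 2). STZ-HFHC 1 lay above ND and STZ-HFHC 2 below it, at 2.11 and 0.611 times the ND share, so the STZ-HFHC mice fell on both sides of the normal mouse. Intervals here and below cover counting error only, not the spread between mice. When nuclei with 2 or more exclusion genes were let in, the shares became 0.188%, 0.516% and 0.220%, and STZ-HFHC 2 then lay above ND. The ratio of STZ-HFHC 1 to ND became 5.71 with at least 3 markers and 3.81 without Gpm6a as a marker. That of STZ-HFHC 2 to ND fell to 0.389 and 0.467 under the same settings. With each nucleus thinned to 1000 UMIs the ratios of STZ-HFHC 1 and STZ-HFHC 2 to ND were 2.84 and 0.705.

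The values that chose the members were spread widely among them. Of the 56, 26 held exactly 2 of the 6 markers, 12 held 3, 11 held 4, 6 held 5 and 1 held all 6. The members with 4 or more came from STZ-HFHC 1, the deepest of the 3 for these nuclei, except 1 in ND. Gpm6a, a membrane glycoprotein, was found in 52 members (12, 30 and 10 by library), Muc16, the mucin known as CA125, in 8, 24 and 5, and Wt1, a zinc finger factor of coelomic epithelium, in 5, 15 and 5. Msln, which encodes mesothelin, was found in 2, 23 and 1 members, Upk3b in 5, 14 and 2, and Lrrn4, a leucine-rich repeat membrane protein, in 1, 5 and 1. The markers together made up a median of 0.371%, 0.438% and 0.471% of a member's UMIs.

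**Figure D1:**
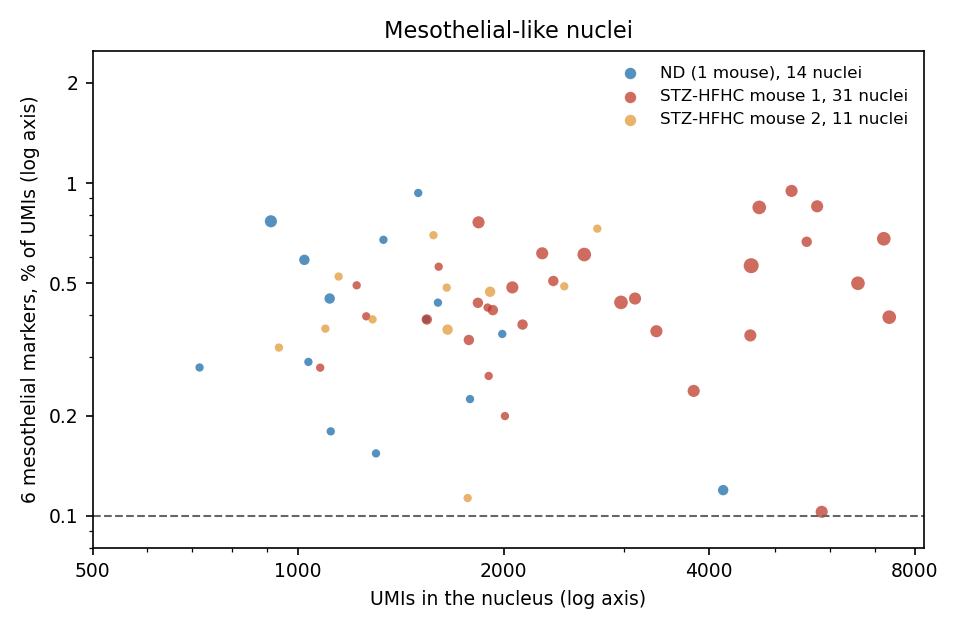
Each point is 1 mesothelial-like nucleus, coloured by library, with its UMIs on the horizontal axis and the share of them from the 6 markers on the vertical axis (both log axes). The 31 nuclei of STZ-HFHC 1 reach 7339 UMIs, and all 56 lie between 0.103% and 0.947%.

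Before the limit on exclusion genes, the cut at 0.1% kept 16, 46 and 24 of the 22, 59 and 32 nuclei that held the required markers. With the other conditions met, 3 nuclei lay between 0.05% and 0.1%, 6 members between 0.1% and 0.2%, and 50 at or above 0.2%. The summed level of 22 other mesothelial genes that the rule did not use (CPM, UMIs of a gene divided by all UMIs of the same nuclei, on the usual scale) differed by library within these bands. It was 2519 and 2252 CPM below the cut in ND and STZ-HFHC 1, 3027, 14009 and 2259 CPM just above it and 8249, 12183 and 4559 CPM from 0.2% on, so that in ND the 3 members just above the cut lay near the 2 nuclei below it. STZ-HFHC 2 had 1 nucleus just above and none below. The limit on exclusion genes removed 2, 15 and 13 further nuclei by library. These were deeper, with medians of 5325, 3899 and 2752 UMIs, and Stab2 was found in 2, 9 and 13 of them and Ptprb in 1, 11 and 10. Their 22-gene level was still 4601, 13993 and 6403 CPM. Of the members, 26 held no exclusion gene and 30 held 1.

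For comparison, nuclei were named from markers in the same files as stellate-like (958), cholangiocyte-like (155) or hepatocyte-like (5913). Counts were summed per library and class, and edgeR's quasi-likelihood test with the library as a block compared them, with Benjamini-Hochberg adjustment over 8137 genes and calls at an adjusted p below 0.05. Of these genes, 4.69% were higher and 8.28% lower in mesothelial-like than in stellate-like nuclei (382 and 674). Against cholangiocyte-like nuclei 5.58% were higher and 6.71% lower (454 and 546), and against hepatocyte-like nuclei 10.7% were higher and 14.3% lower (868 and 1165). Higher against all 3 classes were 262 genes (3.22%), and lower against all 3 were 196 (2.41%). A model without the library term called 136 and 59 genes in all 3. Under DESeq2's size factors in place of TMM the median fold change of all genes moved from -0.36, -0.31 and -0.33 to -0.15, -0.14 and -0.10 on the log2 scale. The higher share of calls then moved from 36.2% to 49.9% against stellate-like, from 45.4% to 58.4% against cholangiocyte-like and from 42.7% to 56.3% against hepatocyte-like nuclei. Without STZ-HFHC 1, which holds most member UMIs, 74 of the 262 higher genes kept the call in all 3 comparisons, 161 lost at least 1 and 27 fell below the count filter, while 34 of the 196 lower genes kept it. Counts and folds given below as 3 numbers are in the order stellate-like, cholangiocyte-like and hepatocyte-like. Where a gene was nearly absent from these classes, it passed the count filter through the members' own UMIs, and its call is a description.

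Of 22 mesothelial identity genes outside the rule, 10 were higher in these nuclei than in all 3 classes. On this list 15 had enough counts to be tested, and 13 were higher than in stellate-like, 10 than in cholangiocyte-like and 12 than in hepatocyte-like nuclei. Of the 15, 4 had no UMI in stellate-like and 5 none in cholangiocyte-like nuclei and passed the count filter through the members' own UMIs, so these counts are a description. The median log2 fold changes were 6.32, 4.45 and 8.45, with genes at 0 UMIs in a comparison class set at their lower bound, against medians of -0.36, -0.31 and -0.33 over all genes tested. The 10 genes higher against all 3 were Sulf1, Efemp1, C3, Igfbp6, Rspo1, Upk1b, Bnc1, Pdpn, Cd200 and Slpi. Without STZ-HFHC 1, Sulf1, Efemp1 and Slpi kept all 3 calls, Cd200 and C3 lost at least 1, and the other 5 had too few counts to be tested. Under DESeq2, Upk1b and Bnc1 lost the call against cholangiocyte-like nuclei and the other 8 kept all 3.

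Sulf1 encodes an extracellular enzyme that removes sulfate groups from heparan sulfate (chr1:12692277-12861192, plus strand, GENCODE M21 on GRCm38, as for the other gene positions given here). In the members it stood at 1891, 3174 and 1317 CPM (40, 324 and 24 UMIs). All 3 libraries lay far above the stellate-like and hepatocyte-like nuclei of the same mouse. The log2 fold change was 5.96 ± 0.32 (SE) against stellate-like nuclei (adjusted p = 6.1e-22, edgeR) and 9.34 ± 0.35 against hepatocyte-like nuclei (adjusted p = 5.4e-29). No Sulf1 UMI lay in any cholangiocyte-like nucleus, so the level was at least 404-fold higher in the members, with the floor of 3 counts set over the whole class, and at least 119-fold without STZ-HFHC 1. By nucleus, 57.1%, 93.5% and 72.7% of members held a Sulf1 UMI, and 41.7%, 87.1% and 60.0% after thinning to 1000 UMIs (12, 31 and 10 members were deep enough). Of hepatocyte-like nuclei 0.264%, 1.19% and 1.01% held one at full depth, and 0.244%, 0.211% and 0.604% after thinning.

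Efemp1 encodes fibulin-3, a glycoprotein of elastic fibers and basement membranes (chr11:28853204-28926743, plus strand). Its member level was 1040, 2165 and 878 CPM. Stellate-like nuclei of the same mice held 92.7, 88.3 and 67.2 CPM, with no overlap between the classes. The log2 fold changes were 3.70 ± 0.25 against stellate-like, 5.09 ± 0.34 against cholangiocyte-like and 8.88 ± 0.29 against hepatocyte-like nuclei (edgeR adjusted p = 8.1e-18, 8.3e-18 and 6.4e-32).

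Rspo1, a secreted amplifier of Wnt signaling, stood at 236, 343 and 220 CPM. It had no UMI in stellate-like or cholangiocyte-like nuclei, which made it at least 283-fold and at least 45.8-fold higher in the members. Its log2 fold change against hepatocyte-like nuclei, which averaged 0.321 CPM, was 9.35 ± 0.76. This too is a description, since Rspo1 passed the count filter through the members' own UMIs. Upk1b, another uroplakin, was at 94.5, 431 and 110 CPM and at least 309-fold and 49.9-fold higher by the same bounds. Without STZ-HFHC 1, which held 44 of the 48 Upk1b UMIs, these bounds were 67.7 and 7.44, and those of Rspo1 152 and 16.7. Both genes were thus seen in every mouse and in neither of these comparison classes. Bnc1, a zinc finger factor of epithelia and mesothelium, was at 47.3, 167 and 165 CPM and at least 135-fold and 21.8-fold higher (67.7 and 7.44 without STZ-HFHC 1). Pdpn, the podoplanin of mesothelium and lymphatic endothelium, was at 94.5, 274 and 384 CPM.

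C3, the central component of complement, was at 1040, 1597 and 0 CPM, and at the floor of 3 counts the 0 UMIs in STZ-HFHC 2 allow up to 165 CPM. It was called higher against all 3 classes (log2 fold changes 2.79 ± 0.31, 2.26 ± 0.35 and 2.08 ± 0.30, edgeR), although STZ-HFHC 2 showed none, and it lost all 3 calls in the model without the library term. Alcam, a cell adhesion molecule, was at 1276, 2028 and 823 CPM. It was higher than in stellate-like and hepatocyte-like nuclei (1.09 ± 0.25 and 0.69 ± 0.25) but was not called against cholangiocyte-like nuclei (-0.66 ± 0.25, edgeR adjusted p = 0.078). Keratins gave few counts: Krt7 was at 47.3, 98.0 and 110 CPM and Krt8 at 94.5, 88.2 and 110, while Krt18 and Krt19 had UMIs in STZ-HFHC 1 alone (49.0 and 19.6 CPM) and Krt14 and Calb2, the calretinin gene, had none.

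**Figure D2:**
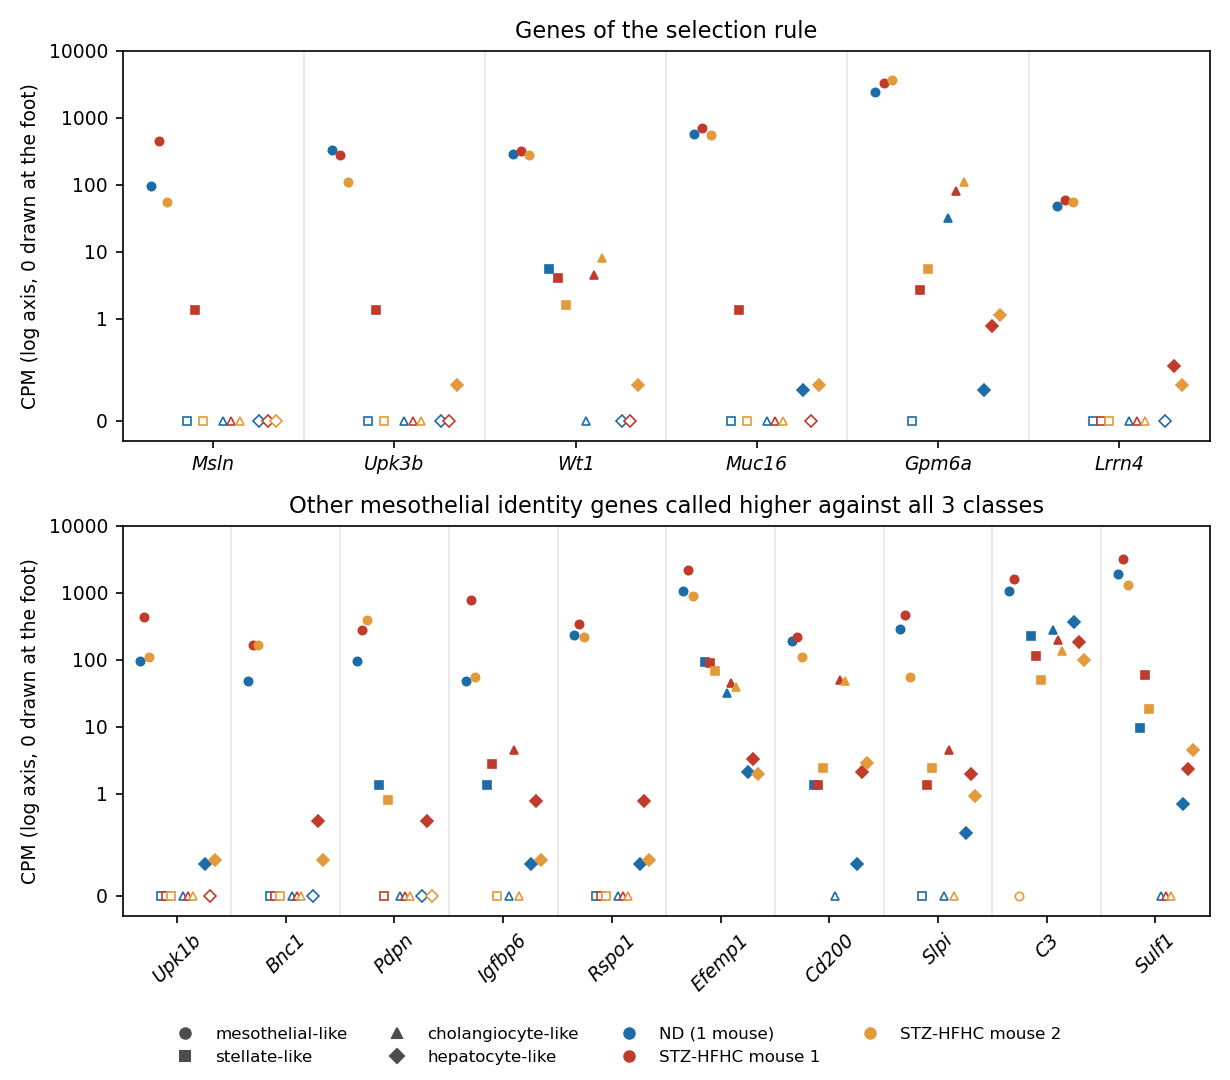
CPM (log axis, 0 drawn at the foot) of the 6 rule markers and of the 10 identity genes called higher against all 3 classes, in each class, with 1 point per library coloured by mouse. For Sulf1 the 3 mesothelial-like points lie between 1317 and 3174 CPM and the cholangiocyte-like points at 0.

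Among the rule's own markers, which are described without a test, Gpm6a stood at 2411, 3341 and 3677 CPM, Muc16 at 567, 696 and 549, and Wt1 at 284, 323 and 274. Upk3b was at 331, 274 and 110, Lrrn4 at 47.3, 58.8 and 54.9, and Msln at 94.5, 451 and 54.9. Msln and Upk3b thus varied most between libraries. Gpm6a was also at 32.1, 81.2 and 111 CPM in cholangiocyte-like nuclei. After thinning, 91.7%, 90.3% and 90.0% of members held a Gpm6a UMI, against 0.0349%, 0.106% and 0.110% of hepatocyte-like nuclei. Members were chosen by these markers, and the comparison classes were limited in them, so such contrasts follow in part from the selection.

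Transcription factors of mesothelium and coelomic epithelium were next. Of 16 listed, 9 were tested, and 3 were higher than in stellate-like, 6 than in cholangiocyte-like and 7 than in hepatocyte-like nuclei, with 1 lower than in stellate-like nuclei. Bnc2, Meis1 and Meis2 were higher against all 3. Bnc2, a zinc finger factor related to Bnc1 (chr4:84275095-84675275, minus strand), was at 1134, 2224 and 1427 CPM (24, 227 and 26 UMIs). Only 2 Bnc2 UMIs lay in stellate-like and 1 in cholangiocyte-like nuclei, giving ratios of 2677 (counting interval 734 to 22214) and 864 (154 to 34264, and 279 without STZ-HFHC 1). Hepatocyte-like nuclei averaged 2.77 CPM, and the log2 fold change against them was 8.89 ± 0.34. Bnc2 passed the count filter through the members' own UMIs, so its folds are a description. A Bnc2 UMI was present in 71.4%, 90.3% and 72.7% of members, and in 58.3%, 74.2% and 70.0% after thinning. In hepatocyte-like nuclei the shares were 0.298%, 1.29% and 1.76%, and after thinning 0 of 2866 in ND (exact 95% interval up to 0.129%), 0.211% and 0.549%.

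Meis2, a homeobox factor, was at 1134, 833 and 933 CPM, with log2 fold changes of 1.52 ± 0.23, 1.76 ± 0.26 and 2.96 ± 0.23 (edgeR adjusted p = 6.6e-07, 6.5e-07 and 8.9e-16). Its relative Meis1 was at 331, 705 and 274 CPM (1.26 ± 0.27, 2.53 ± 0.34 and 2.76 ± 0.28) and lost the call in 2 of the comparisons without STZ-HFHC 1, and at least 1 call without the library block and with none of the exclusion genes allowed. Tead1, the DNA-binding partner of YAP, was at 331, 725 and 823 CPM and was called against cholangiocyte-like and hepatocyte-like nuclei (0.79 ± 0.27 and 1.56 ± 0.25) but not against stellate-like nuclei (0.20 ± 0.24, edgeR adjusted p = 0.69).

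Genes of epithelial junctions and the cell cortex did not move together. Of 15 listed, 11 were tested, with 2, 1 and 1 higher and 2, 4 and 2 lower against stellate-like, cholangiocyte-like and hepatocyte-like nuclei, and median log2 fold changes of -0.53, -0.62 and -0.95. Ezr, which encodes ezrin, the link between the membrane and actin in microvilli, was at 142, 441 and 439 CPM. It was called higher against all 3 (5.88 ± 0.54, 4.91 ± 0.64 and 6.99 ± 0.51). These classes averaged 4.18, 10.7 and 2.13 CPM of Ezr. It passed the count filter through the members' own UMIs, so its calls are a description. Cdh2, the N-cadherin gene, was lower against all 3, at 331, 68.6 and 220 CPM in the members (-3.58 ± 0.35, -2.03 ± 0.39 and -2.60 ± 0.36). Pard3, a polarity protein, was also lower (-0.83 ± 0.23, -0.89 ± 0.24 and -1.23 ± 0.23). Both lower genes lost at least 1 call without STZ-HFHC 1, and Pard3 lost the call against stellate-like nuclei also under DESeq2's size factors, without the library block, with only the 2 classes compared in the fit and without STZ-HFHC 2.

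Of 19 basement membrane genes 16 were tested, and 5, 4 and 8 were higher and 6, 0 and 1 lower, with medians of -0.44, 0.76 and 1.57. Type IV collagen, the network-forming collagen of basement membranes, is built from 6 chains whose genes lie as 3 head-to-head pairs. In GENCODE M21 the starts of Col4a3 and Col4a4 on chromosome 1 are 72 bases apart, those of Col4a5 and Col4a6 on chromosome X are 1309 bases apart, and Col4a1 and Col4a2 on chromosome 8 overlap at their starts.

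The stretch of 71 bases between the Col4a4 and Col4a3 starts (chr1:82586850-82586920, GRCm38.p6, printed on the minus strand, 5′ to 3′ toward Col4a4) is shown because both chains were higher in the members than in all 3 classes. The 250 bases before the RefSeq starts of Col4a5 (chrX:141475169-141475418, plus strand) and Col4a6 (chrX:141474077-141474326, minus strand) are shown because both were higher in the members than in stellate-like and hepatocyte-like nuclei. Capitals mark the GC box GGGCGG, or CCGCCC on the other strand. It was searched on both strands, and 32.7% of 32851 promoter windows of 250 bases held it. The Col4a5 and Col4a6 windows held 1 each, and neither these letters nor GGAATG occurred in the 71 bases.
Col4a4 to Col4a3 gap: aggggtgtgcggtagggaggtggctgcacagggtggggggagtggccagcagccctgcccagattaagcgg
Col4a5: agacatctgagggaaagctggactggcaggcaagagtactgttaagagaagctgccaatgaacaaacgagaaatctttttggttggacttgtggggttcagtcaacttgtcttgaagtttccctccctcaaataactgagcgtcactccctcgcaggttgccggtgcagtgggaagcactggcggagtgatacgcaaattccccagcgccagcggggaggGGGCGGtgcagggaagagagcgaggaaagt
Col4a6: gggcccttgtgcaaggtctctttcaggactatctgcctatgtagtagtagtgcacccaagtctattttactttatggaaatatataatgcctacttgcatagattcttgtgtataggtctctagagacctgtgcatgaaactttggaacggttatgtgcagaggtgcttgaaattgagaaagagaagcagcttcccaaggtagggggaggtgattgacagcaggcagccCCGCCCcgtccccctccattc

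Col4a4 was at 284, 617 and 220 CPM (6, 63 and 4 UMIs). Its log2 fold changes were 7.30 ± 0.63 against stellate-like, 4.46 ± 0.63 against cholangiocyte-like and 7.63 ± 0.55 against hepatocyte-like nuclei (edgeR adjusted p = 5.9e-14, 2.1e-07 and 2.2e-17). Its partner Col4a3 was at 47.3, 245 and 54.9 CPM (1, 25 and 1 UMIs), with 5.53 ± 0.78, 2.94 ± 0.76 and 5.85 ± 0.69. The 3 classes averaged 3.44, 20.3 and 2.46 CPM of Col4a3 and 2.15, 24.8 and 1.77 CPM of Col4a4. Both genes passed the count filter through the members' own UMIs, so their folds, adjusted p-values and calls are a description. In every mouse Col4a4 lay above its level in the other 3 classes.

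Col4a6 was at 142, 333 and 110 CPM (3, 34 and 2 UMIs). Stellate-like nuclei held 1 Col4a6 UMI, a ratio of 754 (counting interval 128 to 30527, and 254 without STZ-HFHC 1). The log2 fold changes against cholangiocyte-like and hepatocyte-like nuclei were 2.22 ± 0.59 and 8.57 ± 0.68 (edgeR adjusted p = 0.0059 and 8.6e-16). Col4a6 too passed the count filter through the members' own UMIs, so its folds, adjusted p-values and calls are a description. Col4a5 was at 142, 392 and 110 CPM and was higher than in stellate-like and hepatocyte-like nuclei (3.83 ± 0.42 and 4.03 ± 0.39). It was not called against cholangiocyte-like nuclei, which held 64.1, 167 and 174 CPM (0.87 ± 0.38, edgeR adjusted p = 0.13).

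Col4a1, of the chains found in most basement membranes, gave 1, 5 and 0 UMIs in the members (47.3, 49.0 and 0 CPM) against 177, 216 and 346 CPM in stellate-like nuclei, and was lower in the members (-2.87 ± 0.49, edgeR adjusted p = 7e-06). Col4a2 was at 0, 39.2 and 110 CPM against 114, 141 and 188 CPM in stellate-like nuclei (-2.11 ± 0.51, edgeR adjusted p = 0.0021). Neither was called against cholangiocyte-like or hepatocyte-like nuclei. Without STZ-HFHC 1, Col4a4 and Col4a6 kept their calls against stellate-like and hepatocyte-like nuclei and lost the one against cholangiocyte-like nuclei, Col4a3 lost all 3, Col4a5 lost the call against stellate-like nuclei, and Col4a2 lost its call while Col4a1 kept it. Against cholangiocyte-like nuclei Col4a3 also lost the call under DESeq2 and without the library block, and Col4a6 without the block and with none of the exclusion genes allowed. Lamc1, the laminin gamma 1 chain, was at 94.5, 343 and 165 CPM and was not called against stellate-like nuclei (-0.62 ± 0.30, edgeR adjusted p = 0.18).

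**Figure D3:**
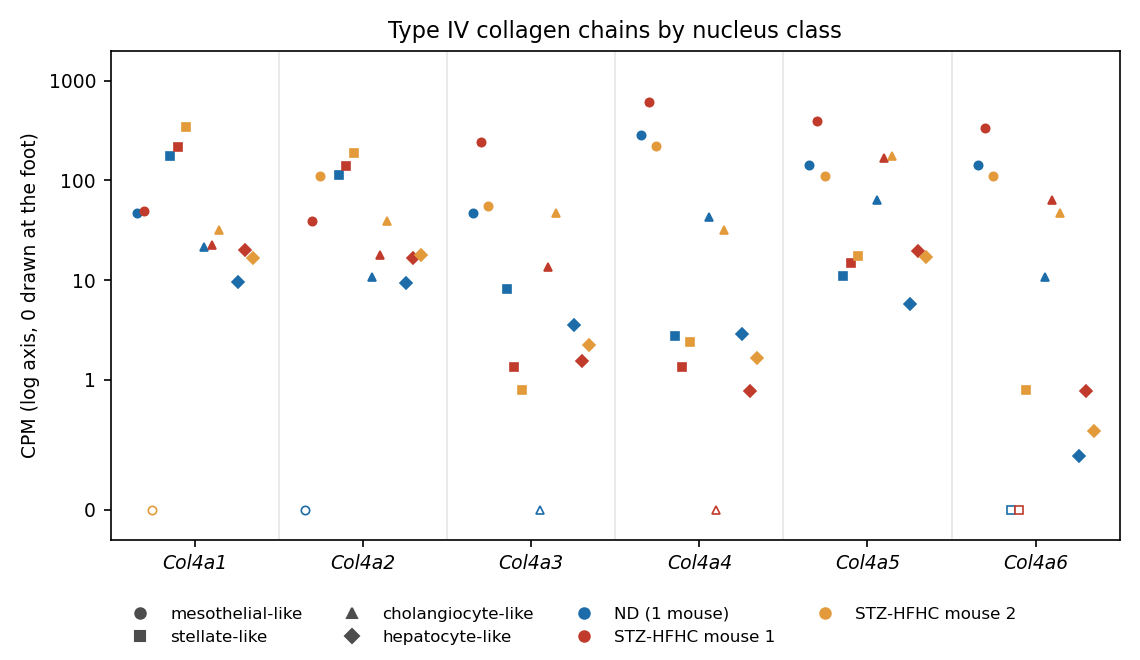
CPM (log axis, 0 drawn at the foot) of the 6 type IV collagen chains in each class, with 1 point per library coloured by mouse. Col4a4 lies between 220 and 617 CPM in mesothelial-like nuclei, and Col4a1 between 177 and 346 CPM in stellate-like nuclei.

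Of 21 interstitial matrix genes 14 were tested, and 10 were higher than in cholangiocyte-like and 10 than in hepatocyte-like nuclei, with 1 lower in each. Of the 14, 7 had no UMI in cholangiocyte-like nuclei, so the count against that class is a description. Against stellate-like nuclei 3 were higher and 5 lower, with a median log2 fold change of -0.64. Dcn, the small proteoglycan decorin, was at 236, 794 and 165 CPM, lower than in stellate-like nuclei (-1.91 ± 0.28, edgeR adjusted p = 3.7e-07) and higher than in cholangiocyte-like and hepatocyte-like nuclei (4.46 ± 0.48 and 3.93 ± 0.33). Col3a1, a fibrillar collagen, was at 189, 519 and 165 CPM, higher than in the epithelial classes (5.31 ± 0.55 and 5.89 ± 0.37) and not called against stellate-like nuclei (0.39 ± 0.30, edgeR adjusted p = 0.45). Eln, the elastin gene, was at 236, 255 and 165 CPM and higher against all 3, by 2.70 ± 0.45 against stellate-like nuclei, at least 35.4-fold (14.9-fold without STZ-HFHC 1) against cholangiocyte-like nuclei, which held no UMI of it, and 6.65 ± 0.53 against hepatocyte-like nuclei.

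Col5a2, another fibrillar collagen, was at 0, 813 and 274 CPM, with no UMI in ND, and Col6a2, of the beaded filament collagen, was at 47.3, 127 and 54.9. Both were called higher against all 3 classes. Cholangiocyte-like nuclei held no Col6a2 UMI, and stellate-like and hepatocyte-like nuclei averaged 16.4 and 1.16 CPM of it. Col6a2 passed the count filter through the members' own UMIs, so its calls are a description. Col5a2, Col6a2 and Eln each lost a call without STZ-HFHC 1, where the fold change of Col5a2 against stellate-like nuclei turned from 1.20 ± 0.32 to -0.52. Col5a2 and Col6a2 also lost a call without the library block and with none of the exclusion genes allowed, and Col5a2 under DESeq2 and without the highest doublet scores. Fn1, fibronectin, was at 993, 78.4 and 384 CPM and lower than in cholangiocyte-like and hepatocyte-like nuclei (-1.05 ± 0.33 and -0.87 ± 0.31, edgeR adjusted p = 0.024 and 0.034). Cholangiocyte-like nuclei held 1058, 460 and 269 CPM of Fn1 and hepatocyte-like nuclei 845, 359 and 264 CPM, so the members lay below both classes in STZ-HFHC 1 alone and above both in STZ-HFHC 2.

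Of 22 genes of mesenchymal transition and of the TGF-beta response 14 were tested, with 3, 4 and 5 higher and 5, 1 and 0 lower. Their median log2 fold changes were -1.41, -0.29 and -0.04, beside -0.36, -0.31 and -0.33 over all genes tested. Vim, an intermediate filament gene, was at 0, 157 and 54.9 CPM, Tgfb2, a ligand, at 94.5, 186 and 0, and Ccn1, a matricellular target gene of YAP, at 47.3, 147 and 274. These 3 were called higher against all 3 classes, and each lost at least 1 call without STZ-HFHC 1, without the library block and with members that held none of the exclusion genes, as did Vim and Tgfb2 under DESeq2, Tgfb2 without ND and without the highest doublet scores, and Ccn1 without STZ-HFHC 2. Without STZ-HFHC 1 Vim against stellate-like nuclei stood at -0.0148. Zeb2, a repressor of epithelial genes, was at 47.3, 372 and 439 CPM, lower than in stellate-like nuclei (-3.56 ± 0.29, edgeR adjusted p = 3.3e-15). Zeb1 was at 94.5, 382 and 384 CPM and Tgfbr1, a TGF-beta receptor, at 236, 98.0 and 274, and neither was called. Pdgfra, Pdgfrb, Tagln, Snai2, Tgfb1 and Itgb6 had no UMI in any member, which at the floor of 3 counts allows up to 142, 29.4 and 165 CPM.

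Of 12 retinoid genes 6 were tested. None was higher and 2 were lower than in stellate-like nuclei, and 1 was higher and 2 lower against each epithelial class. Aldh1a1, a retinaldehyde dehydrogenase, was at 284, 862 and 329 CPM and not called (-0.57 ± 0.30, 0.50 ± 0.33 and 0.28 ± 0.31, with edgeR adjusted p = 0.24, 0.39 and 0.57). Rbp4, the plasma retinol carrier made by hepatocytes, was at 756, 118 and 110 CPM and lower than in hepatocyte-like nuclei (-1.39 ± 0.30). Aldh1a2, long used to mark mesothelium, was at 0, 19.6 and 54.9 CPM. Dhrs3, a retinal reductase with 2 UMIs in all members, was lower against all 3 classes, but lost at least 1 call without ND, without STZ-HFHC 1, without the library block, under DESeq2, with only the 2 classes compared in the fit and with none of the exclusion genes allowed.

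Of 29 secreted factors 13 were tested, with 3, 5 and 4 higher and 2, 0 and 3 lower. Igfbp5, which binds insulin-like growth factors, was at 804, 2429 and 329 CPM (17, 248 and 6 UMIs). The log2 fold change was 7.58 ± 0.39 against stellate-like and 9.22 ± 0.37 against hepatocyte-like nuclei. The 3 classes averaged 4.49, 3.01 and 1.73 CPM of Igfbp5. It passed the count filter through the members' own UMIs, so its folds and calls are a description. In cholangiocyte-like nuclei 2 Igfbp5 UMIs gave a ratio of 423 (counting interval 116 to 3509). Without STZ-HFHC 1 no such UMI was left there and the bound was at least 42.8-fold. Igfbp5 kept all 3 calls without STZ-HFHC 1. Igfbp6, of the same family, was at 47.3, 774 and 54.9 CPM, with 79 of its 81 UMIs from STZ-HFHC 1. Fgf2, a heparin-binding growth factor, was at 142, 265 and 110 CPM and called higher against all 3 classes, which averaged 19.2, 0 and 1.5 CPM. It passed the count filter through the members' own UMIs, so these calls are a description. Fgf2 lost the call against stellate-like nuclei without STZ-HFHC 1, and at least 1 call with none of the exclusion genes allowed. Igf1 was at 378, 88.2 and 274 CPM and lower than in hepatocyte-like nuclei (-1.14 ± 0.34), which held 295, 299 and 405 CPM, so that in ND the members lay above them.

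Beyond the lists, 20 genes were named for the largest folds among those higher against all 3 classes with at least 30 UMIs in the members. They were the identity or secreted genes Upk1b, Rspo1, Bnc2, Pdpn, Igfbp5, Igfbp6 and Slpi and, beside them, Kcnd2, Kcnd3, Ptprq, Lrp2, Prss12, Pcnx2, Pkhd1l1, Dnajc6, Nxph1, Bmpr1b, Gpc3, Cadm2 and Sh3rf2. Without STZ-HFHC 1, 12 of the 20 kept all 3 calls and 8 had too few counts to be tested. Under DESeq2 18 kept them, and Upk1b and Kcnd3 did not. Several had almost no UMI outside the members and passed the count filter through the members' own UMIs, so their folds are a description. Nxph1 encodes neurexophilin 1, a secreted ligand of neurexins (chr6:8948431-9249032, plus strand). It was at 756, 1577 and 3786 CPM in the members, with log2 fold changes of 10.01 ± 0.50 against stellate-like and 7.74 ± 0.36 against hepatocyte-like nuclei. It was at least 256-fold higher than in cholangiocyte-like nuclei (158 without STZ-HFHC 1 and 151 without STZ-HFHC 2). These folds of Nxph1 are such a description. Gpc3, a heparan sulfate proteoglycan of the cell surface, was at 473, 1303 and 659 CPM (7.34 ± 0.44 and 7.51 ± 0.37 against stellate-like and hepatocyte-like nuclei, and at least 161-fold against cholangiocyte-like nuclei, or 40.9-fold without STZ-HFHC 1).

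Several of the 20 are known from other tissues. Kcnd2 and Kcnd3, potassium channel subunits of neurons and heart, were at 425, 794 and 659 CPM and at 142, 323 and 220. Lrp2, the endocytic receptor megalin of kidney tubules, was at 94.5, 294 and 220 CPM, and Ptprq, a receptor phosphatase of inner ear hair cells, at 236, 362 and 549. All 4 had counts in the members of every mouse. Bmpr1b, a receptor for bone morphogenetic proteins, was at 425, 500 and 604 CPM. Pkhd1l1, a large membrane protein, was at 189, 813 and 659 CPM and at least 638-fold higher than in stellate-like nuclei, which held none (at least 271-fold without STZ-HFHC 1). Cadm2, a cell adhesion molecule of neurons, was at 662, 862 and 604 CPM.

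Among genes with at least 30 UMIs in the members, the 5 lowest against all 3 classes were Foxn3, Nedd4l, Cp, Tmem56 and Tns1. Foxn3, a forkhead repressor, was at 142, 255 and 220 CPM, with log2 fold changes of -1.58, -1.59 and -1.59. Tmem56, a membrane protein gene, was at 331, 176 and 274 CPM with -3.60, -1.46 and -2.08. They were picked from genes called lower in each comparison. All 5 kept the 3 calls under DESeq2, and without STZ-HFHC 1 Tmem56 lost 1 and Cp 2 of them.

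Transcripts of other cell types were measured in the members too. The 10 hepatocyte markers summed to 15032, 4154 and 9603 CPM, with all 10, 10 and 9 of them present, and Alb, the albumin gene, was at 6287, 637 and 1427 CPM. The same sum was 13866, 6556 and 8135 in stellate-like, 15609, 9608 and 10442 in cholangiocyte-like and 19440, 15467 and 17215 in hepatocyte-like nuclei. The members' sum lay near those of the stellate-like and cholangiocyte-like nuclei in ND and STZ-HFHC 2 and below both in STZ-HFHC 1, and its part in the comparisons was not tested beyond leaving out 1 nucleus. That nucleus, in ND, held 132 of the 318 hepatocyte UMIs of the ND members, with 5 rule-marker and 17 identity UMIs among its 4192. Without it the ND sum was 10965 CPM, and 252 of the 262 genes higher against all 3 classes and 183 of the 196 lower genes kept their calls.

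The 8 endothelial markers summed to 804, 460 and 439 CPM, with Stab2 at 236, 68.6 and 274 and Pecam1 and Flt1 at 0 in ND and STZ-HFHC 2. Kdr, the main VEGF receptor, was at 189, 137 and 110 CPM and called higher against all 3 classes, but lost calls without STZ-HFHC 1 and when nuclei with any exclusion gene were left out. The 8 stellate and fibroblast markers summed to 331, 901 and 274 CPM, mostly Dcn, with Lrat and Pdgfrb at 0 in all libraries. The 6 cholangiocyte markers summed to 94.5, 382 and 220 CPM, with Cftr at 94.5, 196 and 110 and Epcam and Anxa13 at 0. The 8 macrophage markers summed to 236, 147 and 329 CPM, led by Mrc1, with Clec4f and Marco at 0.

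The 9 portal and capsular fibroblast markers summed to 47.3, 216 and 54.9 CPM in the members, above 6.81, 21.7 and 11.9 CPM in stellate-like, 0, 27.1 and 23.8 in cholangiocyte-like and 7.41, 15.1 and 14.8 in hepatocyte-like nuclei, with 1 UMI each in ND and STZ-HFHC 2. In STZ-HFHC 1, 13 of 31 members held such a UMI. Most were of Cd34, a surface sialomucin that endothelial cells also carry, at 47.3, 157 and 0 CPM (1, 16 and 0 UMIs), and the ratio of its level to that in stellate-like nuclei, which held 3 UMIs, was 110 (counting interval 31.7 to 583), or 25.4 from 1 member UMI without STZ-HFHC 1. Pi16, Dpt, Col15a1 and Mfap4 had no UMI in any member. The part of such cells in the results was not tested. The neural and glial markers summed to 236, 137 and 165 CPM, with Snap25, Sox10 and Rbfox3 at 0. The T, NK and B cell markers summed to 47.3, 49.0 and 54.9 CPM. Themis, a T cell signaling gene with 3 UMIs in all members, was called lower against all 3 classes (-2.10 ± 0.68, -2.61 ± 0.68 and -3.41 ± 0.58), and lost at least 1 call without either STZ-HFHC library, under DESeq2, under its size factors, without the library block and with at least 3 rule markers. The levels in hepatocyte-like nuclei were 28.0, 246 and 290 CPM. The adipocyte markers summed to 0, 49.0 and 54.9 with Adipoq, Plin1 and Lep at 0, and the smooth muscle markers to 0, 19.6 and 110. Genes of dividing cells summed to 189, 666 and 0 CPM. In STZ-HFHC 1, 52 of the 68 such UMIs came from 1 nucleus that also held 33 rule-marker and 58 identity UMIs, and without it the sum was 168 CPM.

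**Figure D4:**
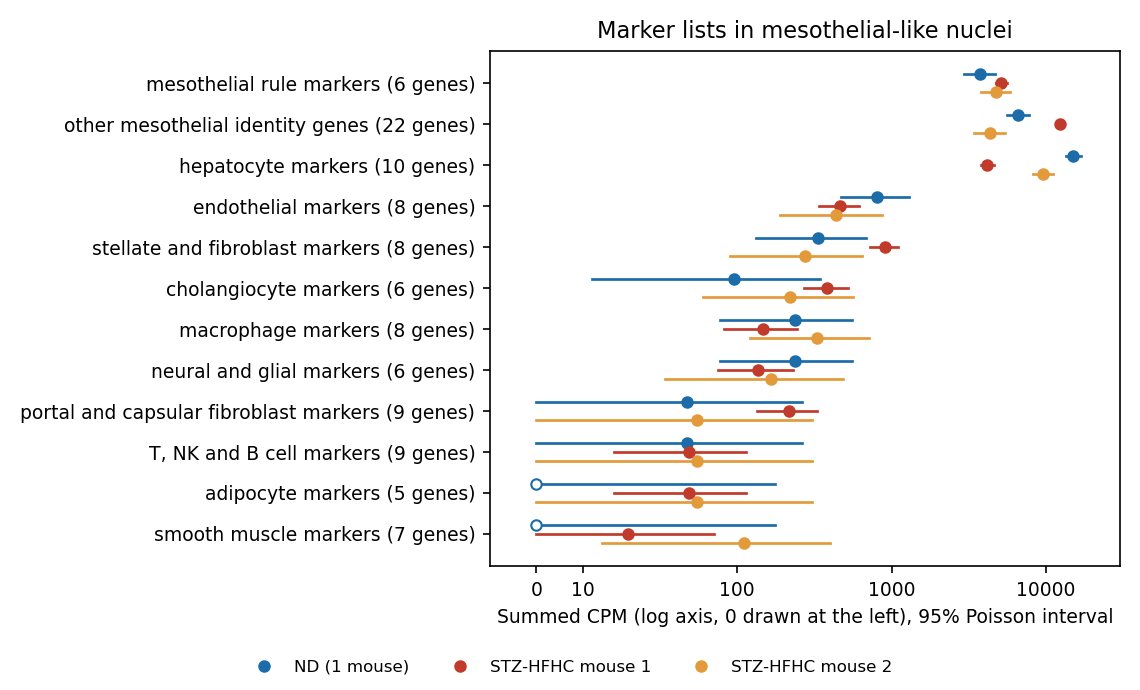
Summed CPM (log axis, 0 drawn at the left) of 12 marker lists in mesothelial-like nuclei, with 1 point per library and bars for the 95% Poisson counting interval. The identity list lies at 6618, 12324 and 4335 CPM and the hepatocyte list at 15032, 4154 and 9603, while the smooth muscle and adipocyte lists lie at or below 110.

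Between ND and STZ-HFHC members no test was possible, so genes were named by a rule of size: at least 50 UMIs over all members, and a log2 difference from ND of 2 or more that had 1 sign in both STZ-HFHC animals, with 0.5 added to each count. Of 469 genes, 8 were higher (1.71%) and 8 lower (1.71%). Higher were Ugp2, Col5a2, Fndc3b, Mid1, Sema3c, Ror1, Zbtb16 and Ubn2. Lower were Bhmt, Mup20, Apoc1, Acsl1, Apoa2, Apoe, Alb and Cyp4a14. The ND side rests on 21155 UMIs of 14 nuclei.

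Sema3c, a secreted semaphorin that guides axons and vessels (chr5:17574281-17730268, plus strand), was at 284 CPM in ND and at 1783 and 1482 CPM in the STZ-HFHC mice (6, 182 and 27 UMIs). The ratios to ND were 6.29 (counting interval 2.83 to 17.4) and 5.22 (2.11 to 15.5). In the other classes its log2 differences from ND had the same sign, at 0.73 and 1.77 in stellate-like, 1.52 and 2.23 in cholangiocyte-like and 0.49 and 1.79 in hepatocyte-like nuclei. Sema3c was also higher in the members than in stellate-like, cholangiocyte-like and hepatocyte-like nuclei (6.38 ± 0.35, 3.19 ± 0.32 and 6.84 ± 0.32, edgeR adjusted p = 5.5e-22, 1.4e-11 and 1.8e-25). Ugp2, which makes UDP-glucose, was at 0, 382 and 768 CPM, at least 2.69 and at least 5.42 times the floor in ND, and Col5a2 at least 5.73 and at least 1.93 times. Fndc3b, a membrane protein with fibronectin type III domains, had 1 UMI in ND against 47 and 7, ratios of 9.74 (counting interval 1.66 to 393) and 8.13 (1.04 to 366). Mid1, a ubiquitin ligase, had 1 against 46 and 6, ratios of 9.53 (1.63 to 385) and 6.97 (0.845 to 320), so that the second interval includes 1. Ugp2, Fndc3b and Zbtb16 also lay above ND in both STZ-HFHC mice in each of the other 3 classes, Ugp2 by 1.85 and 2.15 on the log2 scale in hepatocyte-like nuclei, where the median over the 469 genes was 0.34 and 0.26 (0.32 and 0.27 in stellate-like, 0.33 and 0.29 in cholangiocyte-like nuclei). Whether the differences were larger in the members was not tested.

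The lower genes are known as hepatocyte genes. Bhmt, a liver enzyme of methionine metabolism, was at 2931, 49.0 and 165 CPM, ratios of 0.0167 (counting interval 0.00524 to 0.0411) and 0.0562 (0.0113 to 0.172), and hepatocyte-like nuclei of the same mice stood at 5081, 166 and 261 CPM. Apoa2, an apolipoprotein, was at 3073, 245 and 549 CPM. Mup20, a urinary protein made by hepatocytes, had 41 UMIs in ND, of which 37 lay in the 1 nucleus described above. Without that nucleus 10 genes were higher, 5 of them among the former 8 (Ugp2, Col5a2, Fndc3b, Mid1 and Sema3c), and 2 were lower, Bhmt among them.

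The median log2 ratio of the 10 hepatocyte markers to ND was -2.16 and -1.27 in the members, and -1.82 and -1.03 without that nucleus. It was -1.39 and -1.37 in stellate-like, -0.74 and -1.14 in cholangiocyte-like and -0.55 and -0.73 in hepatocyte-like nuclei. These are medians, and Cps1, a urea cycle enzyme among the 10, stood at 2883, 2292 and 5488 CPM in the members and at 6805, 7244 and 9745 CPM in hepatocyte-like nuclei, above ND in both STZ-HFHC mice in the latter. Over all 469 genes the members' medians were 0.42 and 0.22.

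**Figure D5:**
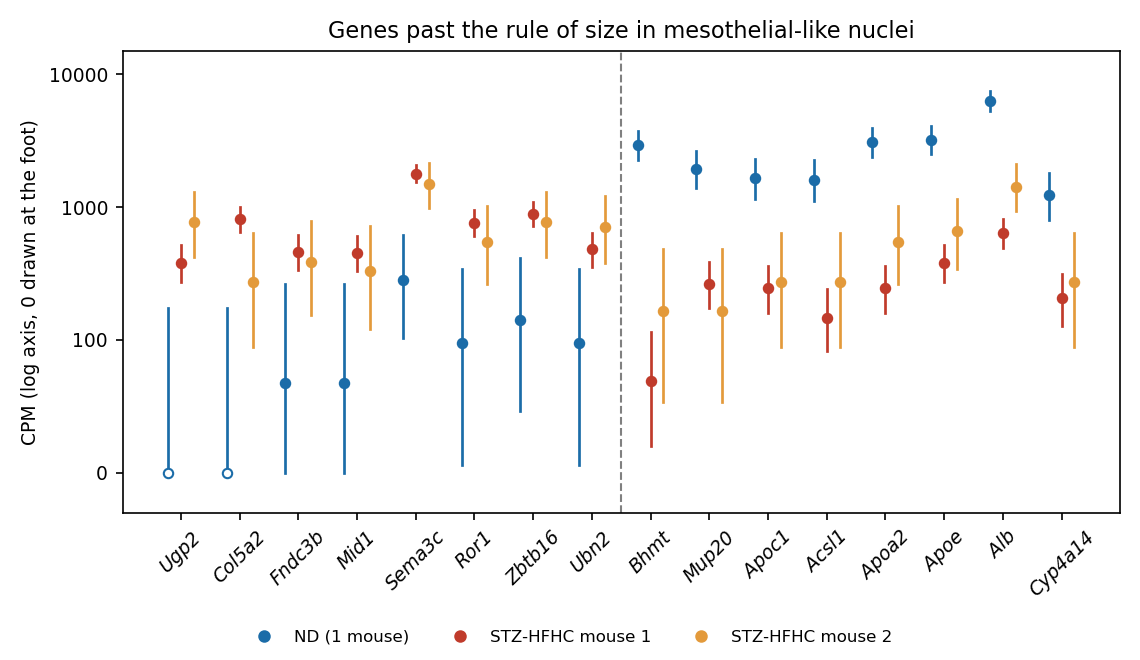
CPM (log axis, 0 drawn at the foot) in mesothelial-like nuclei of the 16 genes past the rule of size, with 1 point per library and bars for the 95% Poisson counting interval. Sema3c lies at 284 CPM in ND and at 1783 and 1482 in the STZ-HFHC mice, and Bhmt at 2931 in ND and at 49.0 and 165.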

How the data were processed

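The authors deposited filtered matrices of UMI counts per gene and nucleus, 1 per mouse, made per the submitters' processing notes with Cell Ranger 7.0.1 on mm10. The annotation and the treatment of intronic reads are not given in the sources used here. The counts are not normalized. The matrices held 30989 barcodes, the cell number the study states after filtering, and its filter (200 to 5000 genes, at most 5% mitochondrial UMIs) left 28336 here. The members and gene lists were chosen with earlier results of these data known.

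Members were found by the marker rule with Python 3.11.15. Stellate-like nuclei held at least 2 of Lrat, Ecm1, Reln and Colec11, cholangiocyte-like nuclei at least 2 of 6 markers, among them Epcam, Pkhd1, Cftr, Tspan8 and Anxa13 (the markers together at least 0.1% of UMIs in both cases), and hepatocyte-like nuclei at least 6 of 10 markers and at most 1 marker of another class or Ptprc. Stellate-like and cholangiocyte-like nuclei could hold at most 1 of the 6 mesothelial markers. Doublets were kept, with the highest 8% of Scrublet scores (Scanpy 1.11.5) left out as an alternative. Counts were summed over the nuclei of each library and class (12 sums) and compared with edgeR 4.0.16 (R 4.3.3) with TMM, filterByExpr and the library as a block, since the classes of 1 library come from 1 mouse. Genes used to choose a class were not tested. Values of some genes are not reported here. The mice are separate animals, but nuclei of 1 library are not replicates, and p-values rest on 3 libraries. CPM is the class sum divided by all UMIs of the same nuclei, with exact 95% Poisson intervals, and shares have Clopper-Pearson intervals (SciPy 1.17.1). Limits given in the text for genes at 0 UMIs are 3 counts over the class UMIs. They lie below the upper ends of the exact intervals drawn in the figures.

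Named were all genes of the rule, the 4 members of each list with the highest mean CPM, any list member called against all 3 classes, the 20 genes with the largest smallest fold and the 5 with the most negative largest fold among genes called against all 3 with at least 30 UMIs, and up to 5 genes each way by the rule of size. Lists of other cell types are given by their sum with only some of these genes named. Where 5 or fewer other genes are named they were chosen after their values were seen. On simulated counts for 6994 genes, edgeR called 96%, 96% and 100% of genes made 8-fold higher, in the order stellate-like, cholangiocyte-like, hepatocyte-like. The rates were 58%, 62% and 64% for 4-fold higher, 64%, 60% and 64% for 8-fold lower and 32%, 24% and 28% for 4-fold lower. Of unchanged genes at most 0.118% were called. The changed genes were well expressed, with 1 fixed spread, the same base levels in all classes and no difference between mice. These rates thus do not cover genes nearly absent from the comparison classes. Alternatives were DESeq2 1.42.0, other size factors, no filter, no library block, other marker limits and leaving out each library. Promoter windows were read from RefSeq (GRCm38.p6), which held 9 of 12 genes asked for, and positions from GENCODE M21, which held 32158 of 32285 identifiers.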

Additional observations from a re-analysis of the deposited data

How the results depend on the processing

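The shares, the counts of called genes and the folds of named genes were recomputed under each alternative, of which leaving out the hepatocyte-rich ND nucleus was chosen after seeing the data. The cause of each shift below was not tested unless fewer nuclei or libraries entered. The share of members in ND became 0.0706% with none of the exclusion genes allowed, 0.0471% with at least 3 markers and 0.0589% without Gpm6a as a marker. That of STZ-HFHC 1 became 0.146% with none of the exclusion genes, 0.516% with no exclusion and 0.224% without Gpm6a, and that of STZ-HFHC 2 became 0.220% with no exclusion, 0.0641% with none of the exclusion genes, 0.0183% with at least 3 markers and 0.0275% without Gpm6a.

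DESeq2's Wald test called 327, 252 and 537 genes lower than in stellate-like, cholangiocyte-like and hepatocyte-like nuclei. Without the replicate block, which ties the classes of 1 mouse, 231 and 248 genes were higher than in stellate-like and cholangiocyte-like nuclei and 357, 192 and 672 were lower than in the 3 classes. With only the 2 classes compared in the fit, 435 genes were lower than in stellate-like nuclei, 291 higher and 166 lower than in cholangiocyte-like nuclei and 563 higher than in hepatocyte-like nuclei. With members that held none of the exclusion genes, 175, 208 and 430 genes were higher. Leaving out each library gave 137 to 439 genes higher and 328 to 643 lower against stellate-like nuclei, 126 to 520 and 133 to 480 against cholangiocyte-like nuclei, and 336 to 971 and 458 to 999 against hepatocyte-like nuclei. The lowest of each range came without STZ-HFHC 1.

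Of the genes higher against all 3 classes, 247 of 262 kept all 3 calls without ND, 228 without STZ-HFHC 2, 228 under DESeq2, 262 under DESeq2's size factors in edgeR, 136 without the replicate block, 140 with only the 2 classes in the fit (102 not tested) and 103 with none of the exclusion genes (35 not tested). Of the 10 identity genes 8, 5 and 5 kept them in the last 3, with 2, 0 and 1 lost and 0, 5 and 4 not tested. Of the 196 lower genes 46 kept them under DESeq2, 83 under those size factors, 59 without the block, 45 with 2 classes and 105 with none of the exclusion genes. Among folds of named genes 38 lost significance and 4 reversed without STZ-HFHC 1. Leaving out each library in turn, the log2 fold change ran from -0.41 to 1.03 for Col4a1 and from -0.25 to 1.19 for Col4a5 against cholangiocyte-like nuclei, and from -0.52 to 1.47 for Col5a2 and from -0.0148 to 2.31 for Vim against stellate-like nuclei. With none of the exclusion genes allowed, Col4a1 reversed against cholangiocyte-like (-0.76) and hepatocyte-like nuclei (-0.20) and 15 folds lost significance. DESeq2 ended 12 of these calls, dropping the block 21, and DESeq2's size factors 2.

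Under the rule of size a minimum of 20 UMIs gave 48 genes higher and 18 lower, members with at least 3 markers gave 20 and 4, and leaving out 1 STZ-HFHC mouse gave 15 to 25 higher and 15 to 19 lower. Without the hepatocyte-rich ND nucleus 2 genes were lower. Depth limits these results most in ND and STZ-HFHC 2, where at the floor of 3 counts a gene with 0 UMIs can stand at up to 142 and 165 CPM in the members.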
